A study of Mus musculus with 6 samples.

Results

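The genes that make sterols and isoprenoids were followed through 6 RNA-seq libraries of IEC 4.1, a mouse cell line labelled as intestinal epithelium. Their members were the genes that the deposited tables annotate with the KEGG pathways for steroid or terpenoid backbone synthesis, or with the Gene Ontology processes for cholesterol or sterol biosynthesis. This gave 54 of 14701 listed genes: 40 by a KEGG pathway, of which 21 also had a Gene Ontology term, and 14 by a Gene Ontology term alone. The 3 control libraries (Ctrl replicates 2, 3 and 4) came from cells not given interferon-gamma. The 3 treated libraries (IFN gamma Treated replicates 1, 2 and 4) were made 6 h after the cytokine was added at 10 ng/ml. The sources used here state no genotype or passage for the line, and do not say whether replicates were separate cultures, so the p-values measure the spread between these libraries, which may be technical. The comparison asks which genes of the pathway change in this line within 6 h of the cytokine. These libraries measure RNA, and enzyme amount, enzyme activity and sterol levels were not examined here.

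Sterols are built from acetyl-CoA. The mevalonate arm makes isopentenyl and farnesyl pyrophosphate, and from there carbon goes either through squalene and lanosterol to cholesterol, or into other isoprenoids such as the prenyl groups of proteins, dolichol and the side chain of ubiquinone. The transcription factors SREBP1 and SREBP2 (genes Srebf1 and Srebf2) switch on the enzymes when membranes are low in sterol: SCAP escorts them from the endoplasmic reticulum to be cut, and the INSIG proteins hold SCAP back when sterol is plentiful.

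Depth was even, at 17490689 to 18678543 estimated counts per library, and the members took 0.417% to 0.424% of the counts in controls and 0.494% to 0.502% in treated libraries. Of 12 epithelial identity genes 8 had a row, none was above 0.58 TPM (the authors' level scaled for gene length and library size) in any library, and none was tested, so the labelled cell type was not borne out by its defining markers. The 9 mesenchymal markers with a row summed to 3880 to 4039 TPM in controls and 3923 to 4124 in treated libraries. Most of these sums was Vim, at means of 2514 TPM in controls and 2875 TPM in treated libraries. Of the 8 mesenchymal markers tested, 2 rose (Vim and Dcn) and 5 fell (Col1a1, Col1a2, Col3a1, Pdgfra and Pdgfrb). Among all genes tested 38.1% were called in either direction. Leukocyte markers summed to 26.9 to 32 TPM in controls and 23.8 to 24.6 TPM in treated libraries. Most of this was Cd14, at means of 25.8 and 21.2 TPM, and Ptprc had a total of 2 counts in controls and 0 in treated libraries. Endothelial markers summed to at most 0.27 TPM, and markers of hepatocytes or steroid-producing cells to at most 0.84 TPM. The part of these shifts in the results was not tested, and in bulk RNA fewer cells of a type and less RNA per cell cannot be told apart. Over all 11423 genes tested with edgeR's quasi-likelihood test, 2278 rose (19.9%) and 2069 fell (18.1%) at a Benjamini-Hochberg adjusted p under 0.05, a split that was 1775 and 2823 with upper-quartile scaling and 1644 and 3124 on total counts.

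The promoters of 42 of the 54 members were found in RefSeq's table for GRCm38.p6, as windows from 250 bases before the start site to 50 after it. They were searched on both strands for the sterol regulatory element TCACNCCAC, the NF-Y box CCAAT, the E-box CACGTG, and 2 elements of interferon signalling, GAS (TTCNNNGAA) and ISRE (GAAA, any pair of bases, GAAA). Hmgcs1 is shown because its window alone among the 42 searched held the sterol element, and it had the largest rise of the pathway. The other 12 members had no window and were not searched. Only exact matches to the pattern were counted, so other forms of the element were not looked for. Ebp and Ggps1, chosen after the matches were seen, are shown because they were the members whose windows held GAS and ISRE. Capitals mark every match to a motif searched, ATTGG being the NF-Y box on the other strand. The runs are 5′ to 3′ on the gene's strand, and end at or next to the start site. They lie on GRCm38.p6 at chr13:119690101-119690350 (plus strand, Hmgcs1), chrX:8193513-8193762 (minus strand, Ebp) and chr13:14063490-14063603 (minus strand, Ggps1, 114 bases without annotated exons). The start site used for the Ggps1 window lies inside the gene, whose RefSeq span reaches 14063566, so part of that run is within the gene.
Hmgcs1: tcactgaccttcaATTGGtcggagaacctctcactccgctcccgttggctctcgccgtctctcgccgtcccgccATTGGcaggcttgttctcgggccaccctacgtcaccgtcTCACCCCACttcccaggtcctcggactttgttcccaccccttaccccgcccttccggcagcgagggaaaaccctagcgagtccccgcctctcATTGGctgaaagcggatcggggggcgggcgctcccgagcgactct
Ebp: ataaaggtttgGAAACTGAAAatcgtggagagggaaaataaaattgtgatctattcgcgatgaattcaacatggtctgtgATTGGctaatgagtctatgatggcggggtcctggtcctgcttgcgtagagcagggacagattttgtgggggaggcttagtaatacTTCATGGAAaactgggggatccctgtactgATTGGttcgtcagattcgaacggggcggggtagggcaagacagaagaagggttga
Ggps1: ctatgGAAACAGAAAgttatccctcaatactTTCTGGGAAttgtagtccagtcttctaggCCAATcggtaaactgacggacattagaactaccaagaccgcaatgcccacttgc

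In the Hmgcs1 run the sterol element begins at position -137 from the start site as TCACCCCAC, with NF-Y boxes at -237, -176 and -45. The sterol element was in 1.44% of all 27025 genes with a window and in 1.31% of the 9159 of them that were tested. Across the table the NF-Y box was found in 41.1% of genes with a window (44% of tested genes), GAS in 9.55% (8.39% of tested genes), ISRE in 3.99% (3.78%) and the E-box in 8.09% (11.9%). Of the members with a window, 29 of 42 held an NF-Y box, 6 an E-box, 2 GAS and 2 ISRE. Among the core enzymes described next that had a window, the NF-Y box was in 14 of 16 that rose and in 4 of 5 that passed no threshold. Such matches describe the letters of a window and are not binding sites. In the same window of Ebp, ISRE begins at -239, GAS at -85 and the NF-Y boxes at -170 and -55. In Ggps1, counted from the start site of its window, ISRE begins at -110 and GAS at -84.

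With interferon-gamma the RNA of the sterol pathway rose along most of its length. The 6 members that attach prenyl groups to proteins, process the protein end or break the prenylated cysteine down did not pass the threshold. The difference between these lists was not tested. Of the 54 members 47 passed the filter on low counts, and of these 26 rose, 2 fell and 19 had no call, against 19.9% rising, 18.1% falling and 38.1% called in either direction among all genes tested. The treated libraries lay wholly above the controls for 27 members and wholly below for 3, against 24.7% and 23.3% of all genes. A fitted rise of at least 1.5-fold was seen for 10 members, against 6.96% of all genes. The median log2 fold change was 0.26 over the tested members and 0.01 over all tested genes. The core enzymes, meaning those from acetyl-CoA to cholesterol and the synthases of other isoprenoids, had 21 of 27 tested risen, none fallen and a median of 0.44. The other 20 tested members had 5 risen, 2 fallen and a median of 0.00. The summed level of the 28 core enzymes was 1603, 1722 and 1702 TPM in controls and 2184, 2187 and 2170 TPM in treated libraries. All 3 treated sums lay above all 3 control sums, by far more than the spread within either group.

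**Figure D1:**
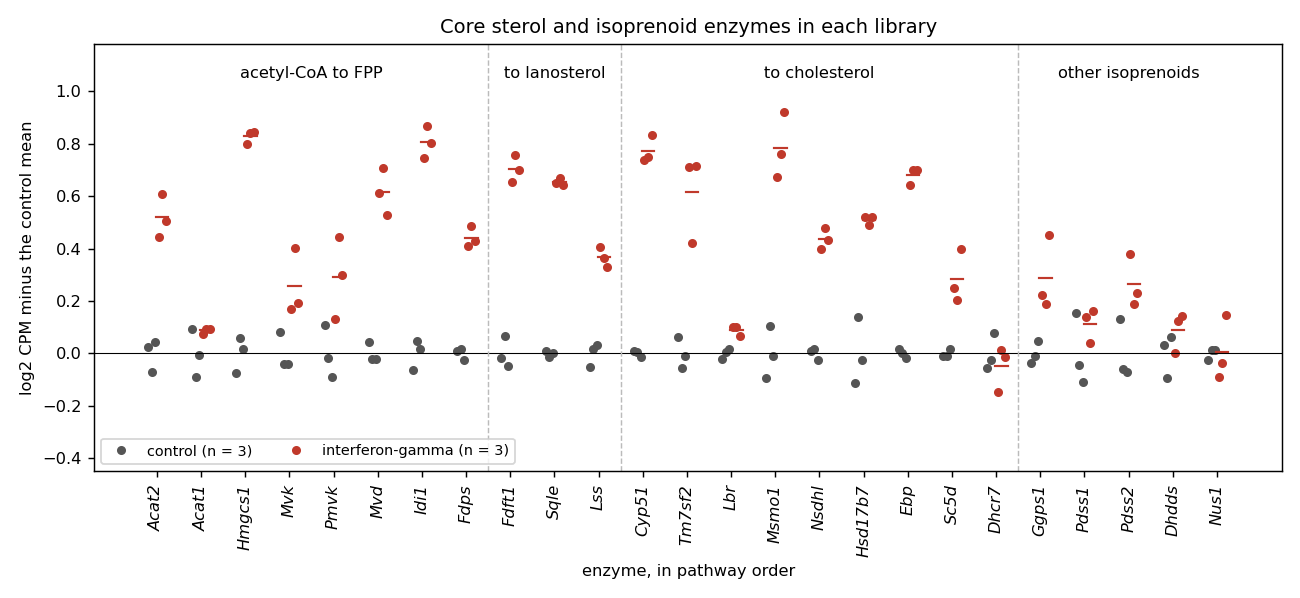
Log2 CPM of 25 of the tested core enzymes in each of the 6 libraries, minus the mean of the 3 controls, in pathway order. Grey points are control and red points interferon-gamma libraries, and red bars are treated means. The treated points lie above every control point for 20 of the 25 enzymes, and the groups overlap for Acat1, Dhcr7, Pdss1, Dhdds and Nus1.

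The entry to the pathway joins acetyl-CoA units into HMG-CoA. Hmgcs1 (chromosome 13, 119690351 to 119708260), the cytosolic HMG-CoA synthase, was at 185, 203 and 197 CPM (counts scaled to the effective library size) in control replicates 2, 3 and 4, and at 339, 349 and 350 CPM in treated replicates 1, 2 and 4. The treated libraries stood clear of the controls, a log2 rise of 0.83 ± 0.042 (SE over 3 and 3 libraries, as for each ± on a log2 value here, edgeR adjusted p = 2.26e-11). Of the thiolases placed at this step, Acat2 rose and Acat1 had no call. Acat3, counted with the other annotated genes, was low at means of 1.68 CPM in controls and 1.56 CPM in treated libraries. It had no call either (log2 -0.10, adjusted p = 0.772). Acat2, the cytosolic thiolase that feeds sterol synthesis, was at 142, 133 and 144 CPM in controls and 190, 213 and 198 CPM in treated libraries, a rise of 0.53 ± 0.059 (adjusted p = 9.81e-08), on estimated counts that were not whole. Acat1, the mitochondrial thiolase of ketone body and isoleucine breakdown, was at 134, 118 and 125 CPM in controls and 132, 134 and 134 CPM in treated libraries. The Acat1 groups overlapped (log2 0.08, adjusted p = 0.256).

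Between mevalonate and farnesyl pyrophosphate all 5 enzymes rose, by unequal amounts. Idi1 (chromosome 13, 8885606 to 8892396), which isomerises isopentenyl pyrophosphate and had estimated counts that were not whole, was at 128, 138 and 135 CPM in controls and 224, 244 and 233 CPM in treated libraries. This was a rise of 0.80 ± 0.049 on the log2 scale (adjusted p = 6.12e-11), close to that of Hmgcs1. Mvd, the decarboxylase that makes isopentenyl pyrophosphate, was at 26.2, 25 and 25 CPM in controls and 38.8, 41.5 and 36.6 CPM in treated libraries, a rise of 0.62 ± 0.057 (adjusted p = 2.02e-07). The kinases before it moved less. Mevalonate kinase, Mvk, was at 33.3, 30.6 and 30.6 CPM and then 35.4, 41.6 and 36 CPM, a rise of 0.26 ± 0.084 (adjusted p = 0.00713). Phosphomevalonate kinase, Pmvk, was at 30, 27.5 and 26.2 CPM in controls and 30.5, 37.9 and 34.3 CPM in treated libraries (log2 0.29 ± 0.108, adjusted p = 0.00554). In both kinases treated replicate 2 was the highest library, and without it neither passed the threshold (Mvk log2 0.18, adjusted p = 0.0814; Pmvk log2 0.21, adjusted p = 0.0566). Pmvk also missed it without control replicate 4 (log2 0.24, adjusted p = 0.0508). Fdps makes farnesyl pyrophosphate, and 26.7% of its exonic bases overlap a second gene model, Gm43738, on the same strand. No value for Gm43738 was available, and the part of shared reads in the Fdps value was not tested. Fdps was at 163, 164 and 159 CPM in controls and 215, 227 and 218 CPM in treated libraries. Its rise of 0.44 ± 0.027 had well-separated groups (adjusted p = 2.65e-07).

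From farnesyl pyrophosphate towards sterol, the enzymes of squalene and lanosterol all rose. Fdft1, the squalene synthase that commits carbon to sterols, was at 77.2, 81.9 and 75.5 CPM in controls and 123, 132 and 127 CPM in treated libraries, a rise of 0.70 ± 0.045 on the log2 scale (adjusted p = 8.62e-10). Of its exonic bases 18.3% overlap the cathepsin gene Ctsb on the opposite strand, and Ctsb itself was at 496 and 509 CPM (log2 0.04, adjusted p = 0.594). Sqle (chromosome 15, 59315092 to 59331193), the squalene epoxidase and a control point of the pathway, gave the tightest values of the pathway. It was at 194, 191 and 193 CPM in controls and 302, 306 and 301 CPM in treated libraries (log2 0.65 ± 0.0087, adjusted p = 3.8e-10). Lss, which folds the squalene epoxide into lanosterol, was at 61, 64 and 64.7 CPM and then 83.8, 81.3 and 79.4 CPM. Its rise of 0.37 ± 0.034 (adjusted p = 1.49e-05) was the smallest of the 3.

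Of the 10 enzymes that turn lanosterol into cholesterol, 8 rose, with a median log2 fold change of 0.48 over the 10. Cyp51 (chromosome 5, 4080674 to 4104697), the sterol demethylase targeted in fungi by azoles, was at 82.1, 81.7 and 80.7 CPM in controls and 136, 137 and 145 CPM in treated libraries. Its log2 rise was 0.77 ± 0.03 (adjusted p = 8.18e-11). Its exons share 3.76% of their bases with Akap9 on the opposite strand, which rose too, from 20.5 to 30.8 CPM (log2 0.59, adjusted p = 2.93e-06), and the part of shared reads in the Cyp51 value was not tested. Msmo1, which oxidises the methyl groups of the sterol ring, was at 103, 118 and 109 CPM in controls and 175, 186 and 208 CPM in treated libraries (log2 0.79 ± 0.092, adjusted p = 2.03e-09). Ebp, the sterol isomerase whose promoter is printed above, was at 80.9, 80.1 and 79 CPM and then 125, 130 and 130 CPM, a rise of 0.68 ± 0.023 (adjusted p = 4.82e-10). Each of these 3 had treated libraries far above the controls.

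Partners of Msmo1 in removing the methyl groups also rose. Nsdhl was at 53.8, 54.1 and 52.6 CPM in controls and 70.5, 74.6 and 72.1 CPM in treated libraries (log2 0.44 ± 0.026, adjusted p = 1.69e-06). Hsd17b7, a ketosteroid reductase, was at 32.4, 38.6 and 34.4 CPM in controls and 50.2, 49.2 and 50.3 CPM in treated libraries (log2 0.51 ± 0.075, adjusted p = 3.06e-06). Neither had overlapping groups.

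The double-bond reductases divided. Tm7sf2 and Lbr both encode sterol reductases of the step after Cyp51, and Lbr also anchors chromatin at the nuclear envelope. Tm7sf2 was at 2.66, 2.45 and 2.53 CPM in controls and 4.17, 3.41 and 4.18 CPM in treated libraries, a rise of 0.62 ± 0.1 on the log2 scale (adjusted p = 0.00361) on totals of 144 and 208 counts. Of its exonic bases 12.1% overlap Vps51 on the same strand. Vps51 was more abundant, at means of 22.9 CPM in controls and 26.1 CPM in treated libraries (log2 0.19, adjusted p = 0.0642). The part of shared reads in the Tm7sf2 value was not tested. Lbr was at 143, 146 and 147 CPM in controls and 156, 156 and 152 CPM in treated libraries, higher in every treated library but by a margin that did not pass the threshold (log2 0.09 ± 0.019, adjusted p = 0.165). Per length, Lbr remained the more abundant of the pair at 71.6 TPM after treatment, against 4.96 TPM for Tm7sf2. Whether the 2 changes differ was not tested.

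Sc5d and Dhcr7 act near the end of the pathway, and both changed by less than the median of 0.48 for the 10 enzymes after lanosterol. Small changes were also seen earlier, in Mvk (0.26), Pmvk (0.29) and Lbr (0.09), and a trend along the pathway was not tested. The desaturase Sc5d was at 107, 107 and 109 CPM in controls and 128, 124 and 142 CPM in treated libraries (log2 0.29 ± 0.061, adjusted p = 0.000331). Dhcr7, the reductase that makes cholesterol from its immediate precursor and is mutated in Smith-Lemli-Opitz syndrome, was at 43.5, 44.4 and 47.7 CPM in controls and 40.8, 45.6 and 44.7 CPM in treated libraries. Its groups overlapped (log2 -0.05 ± 0.064, adjusted p = 0.595), and its change stayed between -0.12 and -0.01 over the alternatives run.

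**Figure D2:**
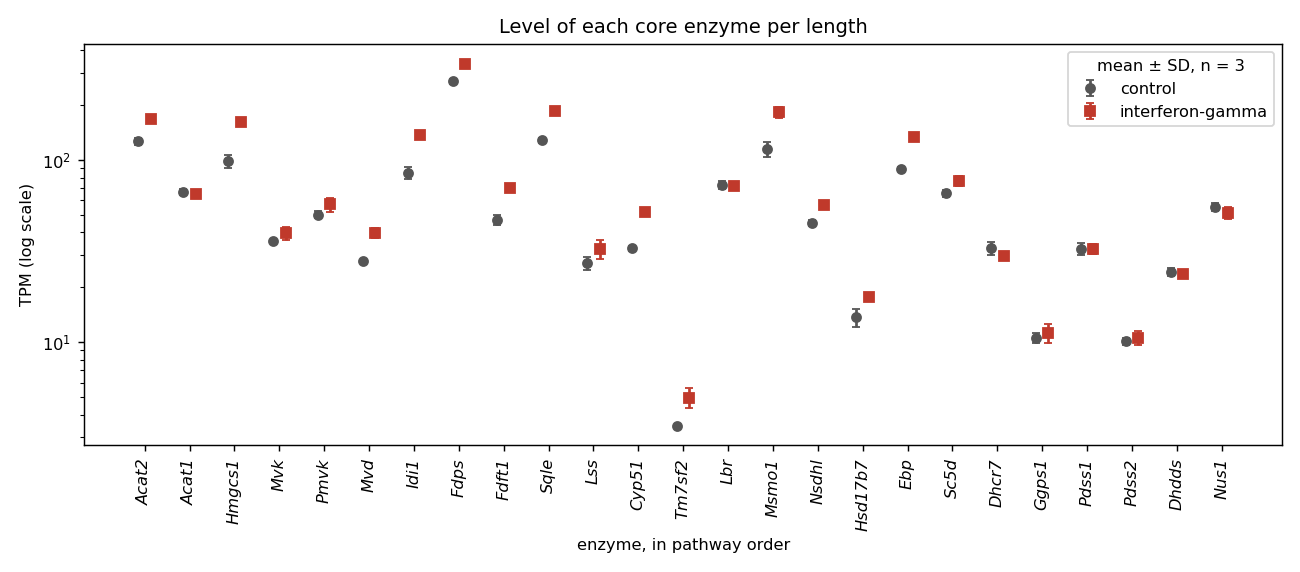
Level of the same 25 core enzymes in TPM on a log axis, with the mean and SD of 3 control (circles) and 3 interferon-gamma libraries (squares). Fdps is the highest, at 270 TPM in controls and 338 TPM in treated libraries, and Tm7sf2 the lowest.

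Per length, the core enzymes spanned a wide range of levels in controls. Fdps stood at 270 ± 9.02 TPM (SD, n = 3), followed by Sqle at 128 ± 3.86, Acat2 at 127 ± 5.53 and Msmo1 at 115 ± 11.1 TPM. These last 3 did not differ from each other beyond about their spread. Hmgcs1 followed at 98.5 ± 8.28 TPM and Ebp at 89.5 ± 2.35 TPM. Toward the low end were Hsd17b7 at 13.7 ± 1.59, Ggps1 at 10.6 ± 0.651, Pdss2 at 10.1 ± 0.467 and Tm7sf2 at 3.47 ± 0.0569 TPM. With interferon-gamma Fdps was still the highest, at 338 ± 6.36 TPM, with Sqle at 186 ± 4.49 and Msmo1 at 183 ± 13.5 TPM next. Hmgcs1, at 161 ± 1.81 TPM, then lay close to Acat2, at 169 ± 6.59 TPM. Ggps1, at 11.2 ± 1.32 TPM, and Pdss2, at 10.6 ± 0.926 TPM, lay within the SD of their treated libraries from the control means. The deposited TPM values were not rescaled to the effective library sizes used for CPM.

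In the other isoprenoid branches the log2 fold changes ran from 0.01 to 0.29. Of the 5 synthases beyond Fdps, 2 rose, where 19.9% of all genes tested rose. The median log2 fold change of the 5 was 0.11, against 0.01 over all tested genes. Ggps1, which makes the geranylgeranyl group, was at 25.2, 25.7 and 26.7 CPM in controls and 30.2, 29.5 and 35.4 CPM in treated libraries, a rise of 0.29 ± 0.086 (adjusted p = 0.00412). Its exons share 5.44% of their bases with Arid4b on the opposite strand, which was called too (log2 0.17, adjusted p = 0.0421). The subunits that build the ubiquinone side chain were Pdss1, at 31.2, 27.2 and 26 CPM and then 30.9, 28.8 and 31.4 CPM (log2 0.11, adjusted p = 0.272), and Pdss2. Pdss2 was at 12.8, 11.2 and 11.1 CPM in controls and 15.2, 13.3 and 13.7 CPM in treated libraries (log2 0.26 ± 0.086, adjusted p = 0.0323). The call of Pdss2 was lost in 7 of 14 alternatives. Its adjusted p was 0.123 without control replicate 3, 0.144 without control replicate 4, 0.173 without treated replicate 1, 0.261 with a replicate block, 0.0977 with DESeq2, 0.0858 with upper-quartile scaling and 0.112 on total counts.

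Dolichol, the carrier of sugars for glycoproteins, is begun by the partners Dhdds and Nus1. Dhdds was at 44.1, 40.4 and 45 CPM in controls and 43.2, 47 and 47.6 CPM in treated libraries (log2 0.09, adjusted p = 0.305). Nus1 was at 143, 147 and 147 CPM in controls and 137, 142 and 161 CPM in treated libraries (log2 0.01, adjusted p = 0.914), a value that fell below 0 with upper-quartile scaling (-0.04) and on total counts (-0.06). Both had overlapping groups.

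Protein prenylation genes attach the farnesyl or geranylgeranyl group, trim and methylate the end of the protein, or break the prenylated cysteine down. None of the 6 (Fnta, Fntb, Rce1, Zmpste24, Icmt and Pcyox1) passed the threshold with edgeR, where 38.1% of all genes tested were called in either direction. With only 6 genes, a difference from that share was not tested. Their log2 fold changes ran from -0.15 to 0.19, with a median of 0.00. At an unadjusted p under 0.05 there were 2, Fntb and Rce1, and DESeq2 called none of the 6. Rce1, the protease of prenylated proteins, was at 33.4, 31.5 and 31.7 CPM in controls and 27.8, 30 and 29.5 CPM in treated libraries. Every treated library lay below every control (log2 -0.15 ± 0.043, adjusted p = 0.0894), and Rce1 passed the threshold with upper-quartile scaling (log2 -0.20, adjusted p = 0.0217) and with total-count scaling (log2 -0.22, adjusted p = 0.0109). Fntb, the beta subunit of farnesyltransferase, had overlapping groups (log2 0.19, adjusted p = 0.0777). It passed the threshold with control replicate 2 left out (adjusted p = 0.0478) and with treated replicate 4 left out (0.0365). Of the exonic bases of Fntb 6.45% overlap Churc1 on the same strand (log2 0.21, adjusted p = 0.115). The part of shared reads in the Fntb value was not tested.

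**Figure D3:**
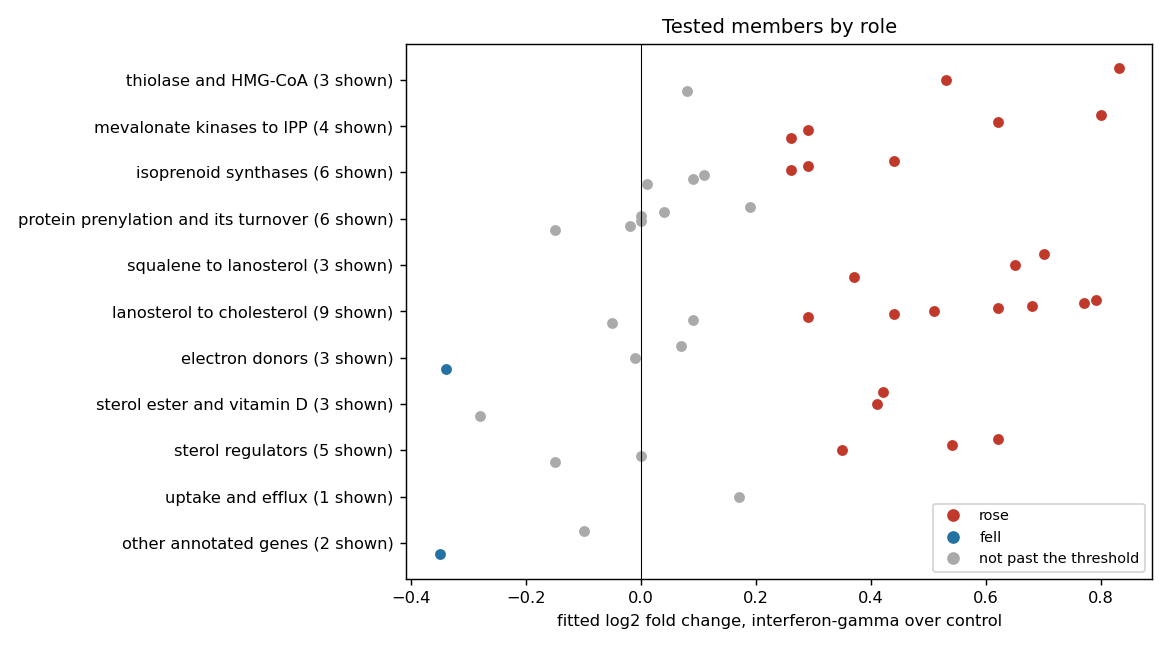
Fitted log2 fold change of 45 of the tested members, grouped by role, 1 point per gene. Red points rose, blue points fell and grey points did not pass the threshold: the 3 genes from squalene to lanosterol and the 4 from mevalonate to isopentenyl pyrophosphate are all red, and the 6 prenylation genes lie between -0.15 and 0.19.

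Genes that handle finished sterol or supply electrons followed no single direction. Soat1, which esterifies cholesterol for storage and had estimated counts that were not whole, was at 111, 110 and 113 CPM in controls and 152, 147 and 149 CPM in treated libraries (log2 0.42 ± 0.019, adjusted p = 5.57e-07). Lipa, the lysosomal lipase that frees cholesterol from its esters, was at 28, 30.3 and 28.2 CPM and then 37.6, 40 and 37.7 CPM (log2 0.41 ± 0.046, adjusted p = 2.6e-05). The transcripts of the storing and the releasing enzyme thus both rose, by near-equal amounts. Of the electron donors 0 of 3 rose and 1 fell, where 19.9% of all genes tested rose and 18.1% fell. Cyb5r1 is a relative of the reductase that supplies electrons for lipid desaturation. It fell from 68.4, 67 and 66.9 CPM to 55.1, 51.9 and 52.9 CPM (log2 -0.34 ± 0.028, adjusted p = 4.51e-05). Its more abundant relative Cyb5r3, at 611 TPM in controls and 559 TPM in treated libraries, and G6pdx, a source of NADPH, had no call.

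The regulators among the members were led by the INSIG genes. Insig1 (chromosome 5, 28071412 to 28078662), itself a classical SREBP target, was at 57.5, 61.2 and 64.2 CPM in controls and 87.2, 90.1 and 88.8 CPM in treated libraries. Its log2 rise was 0.54 ± 0.048 (adjusted p = 1.02e-07). Insig2 was at 33.2, 35.8 and 37.2 CPM in controls and 52.5, 54.1 and 56.6 CPM in treated libraries (log2 0.62 ± 0.057, adjusted p = 7.14e-08). The treated libraries of both genes lay well above the controls. Erg28, a membrane scaffold of the sterol demethylation enzymes, was at 21, 23.2 and 23.9 CPM and then 26.8, 29 and 31.2 CPM (log2 0.35 ± 0.084, adjusted p = 0.000858). Prkaa1 and Prkaa2, the catalytic subunits of AMP kinase, had no call.

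The rest of the members are in the rule through a KEGG pathway or a Gene Ontology term. Ces1g, a carboxylesterase, fell from 55.4, 52.3 and 48.5 CPM to 40.8, 40.7 and 41 CPM (log2 -0.35 ± 0.055, adjusted p = 0.000123), and its groups did not overlap. Acat3, Npc1l1 and Cyp27b1 were tested at low counts and had no call. Among the 7 members too low to test were Cel, Apoa1 and Cftr, each with 1 count over the control libraries and 0 after treatment, and Soat2, Ces1a and Ces1f, with totals of 10.5, 25 and 14 counts in controls and 10, 17 and 18 in treated libraries. The tables list 673 genes that were at 0 in every treated library, and 0 genes that were so in every control. A member silent in controls would therefore not be listed, and a gene of the pathway switched on from nothing cannot be seen.

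The SREBP genes and their escort are not members of the set. Srebf2, the SREBP that mainly serves cholesterol genes, was at 609, 594 and 613 CPM in controls and 697, 669 and 602 CPM in treated libraries. Treated replicate 4 lay among the controls (log2 0.12 ± 0.064, adjusted p = 0.106), and without it Srebf2 passed the threshold (log2 0.17, adjusted p = 0.00659). Srebf1, which mainly serves fatty acid genes, was at 79.2, 80.8 and 80.6 CPM and then 84.7, 79.3 and 73 CPM (log2 -0.02 ± 0.062, adjusted p = 0.812), and its value was above 0 without treated replicate 4 (0.03). Scap, the escort, went down, from 132, 127 and 129 CPM to 116, 120 and 106 CPM (log2 -0.19 ± 0.055, adjusted p = 0.00916).

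Of the 24 genes listed as sterol regulators 22 were tested, and 7 rose and 4 fell, with a median log2 fold change of -0.01, where 19.9% of all genes tested rose and 18.1% fell. Besides the members Insig1, Insig2 and Erg28, the risers included Nfyb, a subunit of the NF-Y factor, from 30.9, 31.4 and 32.8 CPM to 49.1, 48.6 and 54.2 CPM (log2 0.67 ± 0.056, adjusted p = 2.58e-08). Its partner Nfya fell, from 124, 117 and 119 CPM to 103, 101 and 98.7 CPM (log2 -0.25 ± 0.031, adjusted p = 0.000481). Nr1h2, the sterol-sensing receptor LXR beta, rose from 29.9, 27.8 and 29.3 CPM to 45.6, 44.1 and 38.6 CPM (log2 0.56 ± 0.08, adjusted p = 1.52e-06). Weaker calls were those of Rnf139 (log2 0.18), Erlin2 (0.21), Mbtps2 (-0.17) and Ubxn8 (-0.27). Each of these 4 was lost in 2 to 6 of the 14 alternatives.

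Uptake, transport and efflux genes had 4 of 14 tested risen and 3 fallen, with a median log2 fold change of 0.04, where 19.9% of all genes tested rose and 18.1% fell. Stard4, which carries sterol between membranes, rose from 64.2, 71.8 and 76.1 CPM to 104, 102 and 105 CPM (log2 0.55 ± 0.073, adjusted p = 1.84e-07). Lrp8, a lipoprotein receptor, rose by 0.32 ± 0.039 (adjusted p = 5.36e-05), and Npc2, which moves cholesterol out of lysosomes, by 0.21 (adjusted p = 0.00414, and 0.068 without control replicate 4).

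On the export side, Abca1, which loads cholesterol onto apolipoproteins, fell from 4.31, 3.46 and 3.9 CPM to 2.34, 1.71 and 1.35 CPM (log2 -1.10 ± 0.232, adjusted p = 8.13e-05). Apoe, an apolipoprotein at a similar low level, fell from 4.2, 4.1 and 4.8 CPM to 3.39, 3.03 and 2.65 CPM (log2 -0.53 ± 0.121, adjusted p = 0.00867). Lrp1, an abundant receptor on the uptake side, fell from 815, 815 and 829 CPM to 638, 597 and 519 CPM (log2 -0.49 ± 0.088, adjusted p = 1.39e-06). None of the 3 had overlapping groups.

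In fatty acid synthesis, the neighbouring SREBP-driven pathway, 1 of 14 tested genes rose and 2 fell, against 19.9% and 18.1% of all genes, with a median log2 fold change of 0.02. The core sterol and isoprenoid enzymes had 21 of 27 risen and a median of 0.44, and the difference between these lists was not tested. The elongase Elovl6 rose by 0.19 ± 0.044 (adjusted p = 0.00935, but 0.0526 with upper-quartile scaling and 0.107 on total counts). Fasn, the fatty acid synthase, was at 409, 430 and 426 CPM in controls and 399, 372 and 329 CPM in treated libraries (log2 -0.20 ± 0.085, adjusted p = 0.0112). Gpam, which starts glycerolipid synthesis, fell by 0.25 on the log2 scale although its groups overlapped (adjusted p = 0.00825, and 0.0652 without control replicate 4). Of the 7 genes listed for oxysterols, 4 had a row and 1 was called, Cyp46a1, which fell from 1.75, 1.12 and 1.85 CPM to 1.45, 0.606 and 0.589 CPM (adjusted p = 0.0423). That call was lost in 5 of 14 alternatives, DESeq2 (adjusted p = 0.1) and control replicate 2 (0.122), control replicate 4 (0.149), treated replicate 2 (0.169) or treated replicate 4 (0.14) left out. Ch25h, Cyp7b1 and Gpr183 were not analysed here.

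**Figure D4:**
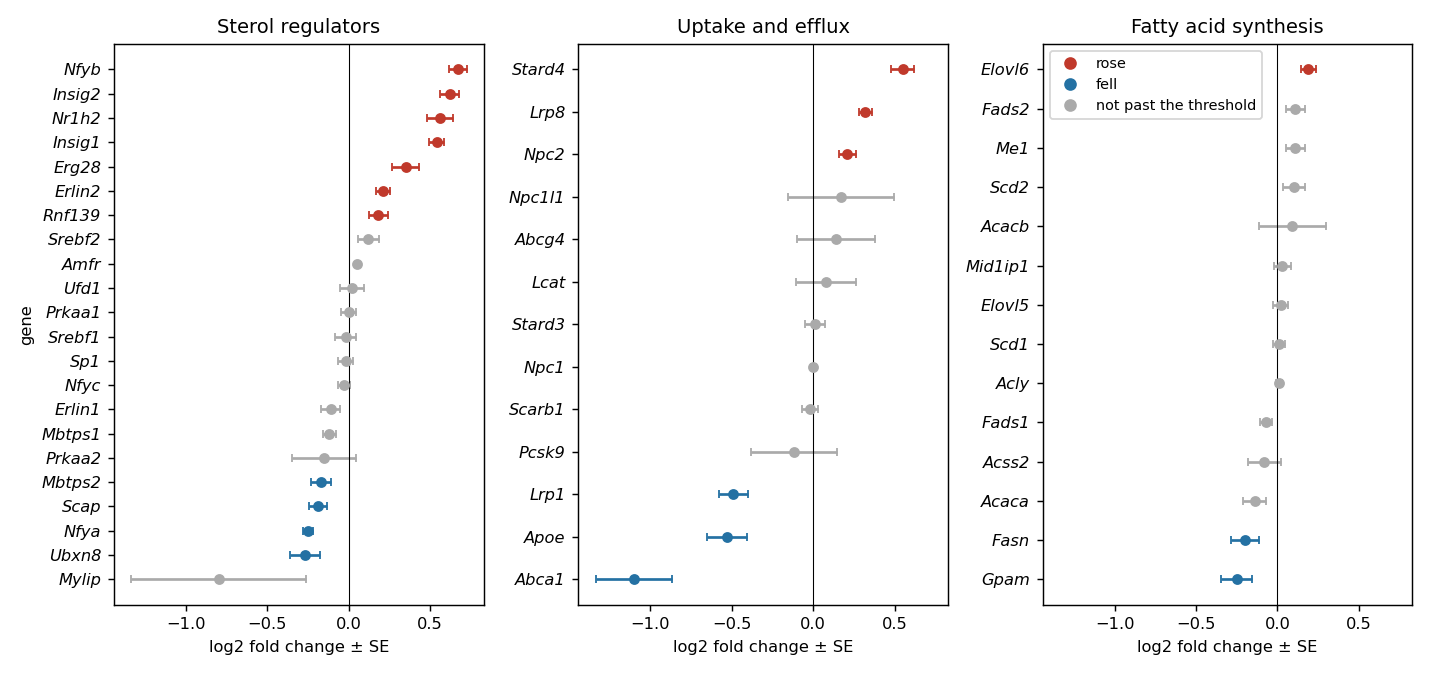
Fitted log2 fold change with the SE between replicates for genes of 3 fixed lists: sterol regulators (22), uptake and efflux (13) and fatty acid synthesis (14). Red genes rose, blue genes fell and grey genes did not pass the threshold, and most of the fatty acid genes lie close to 0.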

How the data were processed

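The authors deposited estimated counts for each gene. In each library 6.8% to 7.37% of the values were fractional, and all were rounded here. TPM and FPKM values were deposited beside them per the file headers. TPM was used to compare levels between genes and FPKM was not used. HISAT and HISAT2, with the builds GRCm38.p6 and mm10, appear in the list taken from the submitters' processing notes, with no role or order. The counting program and its use of strand are not given in the sources used here. The filterByExpr filter (minimum count 10) kept 11423 of 14701 genes. edgeR 4.0.16 (R 4.3.3; TMM, glmQLFit with robust=TRUE, glmQLFTest) compared 3 treated with 3 control libraries, with Benjamini-Hochberg adjustment over all tested genes. CPM used effective library sizes. Standard errors came from replicate log2 CPM (prior count 2). Exon overlaps came from the GENCODE annotation of GRCm38 and other coordinates from RefSeq. Exons of Lbr, Pdss1, G6pdx, Acat3 and Icmt also overlapped another gene on the opposite strand, over 1.95% to 23.5% of their exonic bases. The fit was tested on simulated data.

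The members and gene lists were chosen with earlier results of these data known. The rule named every tested core enzyme, the called members in other roles, 5 regulators and the called genes of the other lists. A few genes are counted in the lists but not reported here by name or in figures. Rce1, Fntb, the genes overlapping members and those printed for their promoters were named after their values were seen. Alternatives were DESeq2 1.42.0, scaling by total counts, upper quartiles or RLE, no low-count filter, at least 1 CPM in 3 samples, robust=FALSE, the replicate number as a block, each library left out, and leaving out members with fractional counts. Python 3.11.15, pandas 2.3.3 and matplotlib 3.10.9 made tables and figures.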

Additional observations from a re-analysis of the deposited data

How the results depend on the processing

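Over the 14 alternative fits, 23 of the 26 members that rose and the 2 that fell had the same call in every fit. Mvk, Pmvk and Pdss2 lost theirs in at least 1, and Fntb and Rce1 gained one. With libraries left out in turn, 24 to 27 members rose and 2 fell (median log2 fold change 0.21 to 0.29), 19 to 21 core enzymes rose and 0 fell (median 0.41 to 0.44), and over all genes 1851 to 2187 rose and 1710 to 2025 fell. The median of the tested members was 0.21 with upper-quartile scaling, 0.19 on total counts and 0.21 with no filter on low counts. The median of the core enzymes was 0.38 with upper-quartile scaling, 0.36 on total counts and 0.37 without members whose counts were fractional. On total counts 3124 genes fell over the whole table. Nus1, near 0, was at -0.04 with upper-quartile scaling, -0.06 on total counts, -0.0047 without control replicate 2 and -0.06 without treated replicate 4 (range with libraries left out -0.06 to 0.05). Srebf1 was at 0.03 without treated replicate 4 (range -0.08 to 0.03). The cause was not tested.

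Replicate numbers 2 and 4 occur in both groups, but only as numbers. The deviations of libraries from their group means correlated at 0.128 for number 2 and -0.0899 for number 4 over 11423 genes. With the number as a replicate block 25 members and 20 core enzymes rose, 2 members fell, and the medians were 0.30 and 0.46. Among the members it changed the call of Pdss2. Depth limits Tm7sf2, with 144 counts in controls, and the 7 members left untested.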
